A study of Macaca mulatta with 13 samples.

Results

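Respiratory complexes II to V, the part of the mitochondrial chain that follows complex I, were examined in vastus lateralis, a thigh muscle, of old male rhesus monkeys (Macaca mulatta). The gene list held 40 nuclear genes: 4 for complex II, 9 for complex III, 1 for cytochrome c, 11 for complex IV and 15 for complex V. A gene was measured where an array probe set carried its symbol, current or older, and no other. This gave 29 of 40 genes, through 49 probe sets, out of 14131 genes with a probe set on the array: 3 of complex II, 7 of complex III, 7 of complex IV and 12 of complex V. Where a gene had several, the one with the highest mean over the 13 arrays was read. The controls were 5 monkeys aged 27 to 30 years on a control diet, and the CR group was 8 monkeys aged 27 to 32 years that had been calorie restricted for 18.5 years. Both groups were males of 1 species, each array held the muscle RNA of 1 animal, and the ages are known per group and not per animal. All values are log2 of the array signal, and differences are CR minus control on that scale. A probe set's signal depends on its probes, so that levels of different genes were not compared as amounts of RNA.

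Complex II, succinate dehydrogenase, oxidises succinate in the citric acid cycle and reduces ubiquinone. Complex III passes those electrons to cytochrome c and pumps protons, complex IV hands them to oxygen and pumps more, and complex V, the ATP synthase, lets the protons flow back through a rotor that drives ATP synthesis. Muscle fibres carry much of this machinery, slow-twitch fibres in general more than fast glycolytic ones, and mitochondrial DNA encodes the catalytic core of complex IV and some subunits of complexes III and V, which the list does not hold.

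The arrays carried bright signals of muscle fibre genes, among them TNNT3 (troponin T of fast fibres) at a mean of 16.66 ± 0.41 (SD, n = 5) for controls and 16.99 ± 0.39 (SD, n = 8) for CR, and TPM1 (tropomyosin) at 16.24 ± 0.29 and 16.57 ± 0.37. Control replicate 4 stood apart in the respiratory genes. It had the lowest of the 13 values for 24 of the 29 genes (82.8%), whereas it was lowest for 14.7% and highest for 16.9% of all 26383 probe sets tested. This was not particular to complexes II to V. Averaged over a list, its deviation from the gene means was -0.65 for the 29 genes and -0.78 for 24 complex I subunits. The same measure was -0.83 for 6 genes of ATP and phosphate export, but -0.020 for 9 assembly factors of complexes II and III. In the same animal the summed signal of 9 muscle fibre markers was 408423, against 465994 to 783215 in the other controls, and 523065 to 900202 in CR. The 9 slow-twitch markers summed to 110155 against 207303 to 525540 in the other controls, but the CR animals ran from 24829 to 606212 and some were below control replicate 4. Several markers of other tissue were higher in it than in the other controls: the 10 measured endothelial markers summed to 20677 against 7873 to 14469, the 5 smooth muscle and pericyte markers to 28312 against 8249 to 12147, the 5 adipocyte markers to 38976 against 5636 to 20180, and the 8 fibroblast and matrix markers to 177641 against 44404 to 101682. The highest sums among CR animals were 12774, 23026, 46309 and 112578, so that the adipocyte sum was higher still in a CR animal. No measured marker of these lists was at the floor on any array. Its log2 3-prime over 5-prime ratio of the actin control probe sets, which grows as RNA is cut, was 2.41, against 1.06 to 2.08 in the other 12 animals, while its GAPDH ratio of 0.728 lay within their range of 0.305 to 0.906. The part of these measures in the results was not tested. Results are therefore given with and without control replicate 4. In whole muscle, fewer cells of a type and less RNA per cell cannot be told apart.

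Across the 29 genes, no difference between CR and control muscle passed the test. None of the 29 passed an adjusted p under 0.05 in limma's test, where 0 of 26383 probe sets (0%) did, and each had an adjusted p of 0.999. None had an unadjusted limma p under 0.05, a limit that 1.25% of probe sets passed as higher in CR and 1.18% as lower. None had groups without overlap, as 0.072% of probe sets did. The difference was above 0 for 22 of the 29 genes and below 0 for 7, with a median of 0.13, while 49.8% of the 9811 genes tested were above 0 and their median was -0.0016. Counts above 0 were 22 under quantile normalization and 25 under median centring of the arrays, 21 with the replicate number as a block, 20 with a gene's probe sets averaged, 19 with array quality weights and 17 with the RNA quality ratios as covariates. Leaving out control replicate 4 gave 9 of 29 above 0 and a median of -0.043, and 13 genes went from above to below 0. With any other single animal left out, the count above 0 was from 18 (CR replicate 3) to 25. The count of 25 came without control replicate 1, control replicate 5 or CR replicate 5. All 29 intervals of 95% covered 0, with half-widths from 0.32 to 1.16 and a median of 0.44, against 0.49 over all genes tested.

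**Figure D1:**
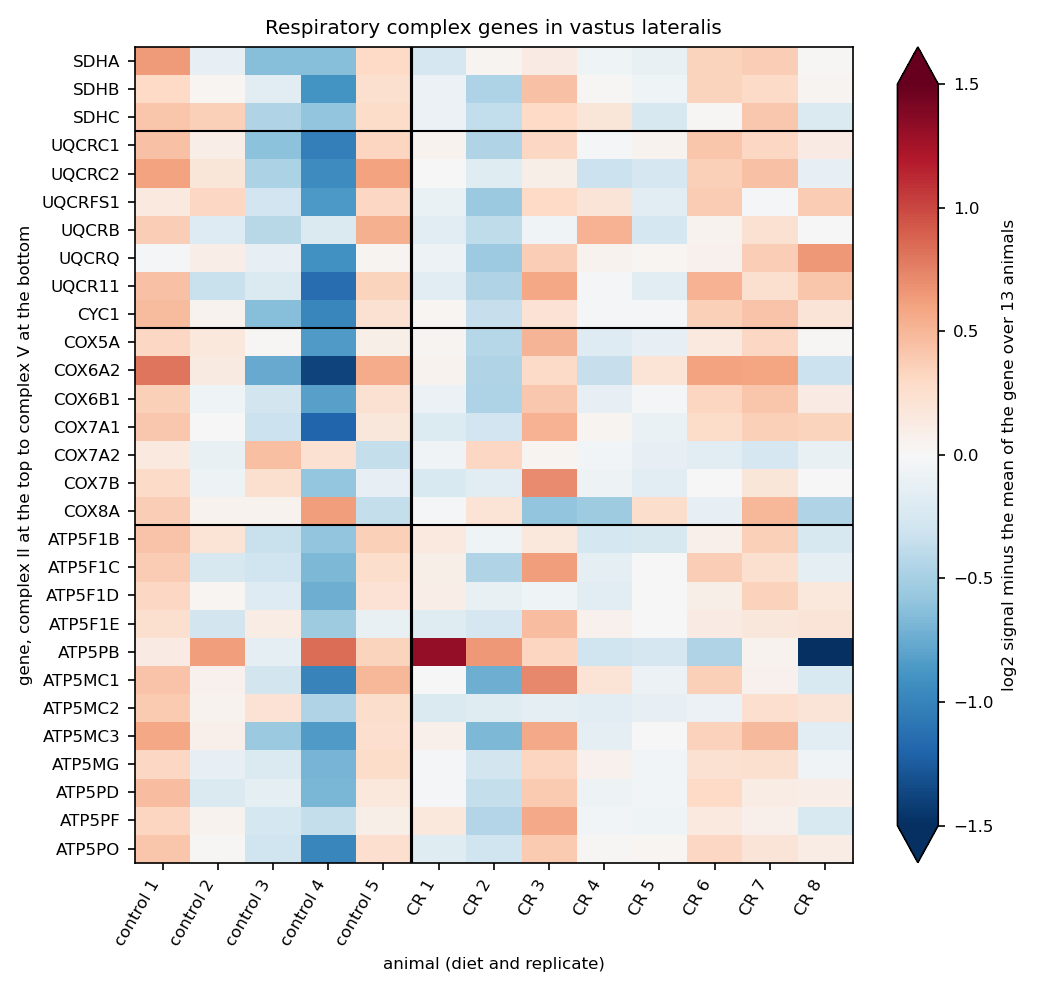
Log2 signal of each of the 29 genes (rows, from complex II at the top to complex V) in each of the 13 animals (columns), minus the gene's mean over the animals; red is above and blue below that mean. Control replicate 4 is blue for most genes and lowest of the 13 animals for 24 of the 29, while control replicate 1 is highest for 11 and CR replicate 3 for 10.

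The median difference was 0.15 for complex II (2 of 3 genes above 0), 0.25 for complex III (6 of 7), 0.094 for complex IV (5 of 7) and 0.13 for complex V (9 of 12). Without control replicate 4 the medians were -0.043 (1 of 3), 0.034 (4 of 7), -0.080 (2 of 7) and -0.028 (2 of 12). This animal was the lowest control for 25 of the 29 genes, so leaving it out had to lower their differences. Averaged over the genes of a complex, an animal's deviation from the gene means averaged -0.06 ± 0.49 (SD, n = 5) for controls and 0.04 ± 0.23 (SD, n = 8) for CR in complex II, and -0.11 ± 0.52 and 0.07 ± 0.25 in complex III. The same measure was -0.05 ± 0.34 and 0.03 ± 0.19 for complex IV, and -0.03 ± 0.37 and 0.02 ± 0.23 for complex V. Each difference between the group means was below the SD of either group. In control replicate 4 the deviation was -0.71 for complex II, -0.87 for complex III, -0.56 for complex IV and -0.56 for complex V, below every other animal in all 4 complexes.

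**Figure D2:**
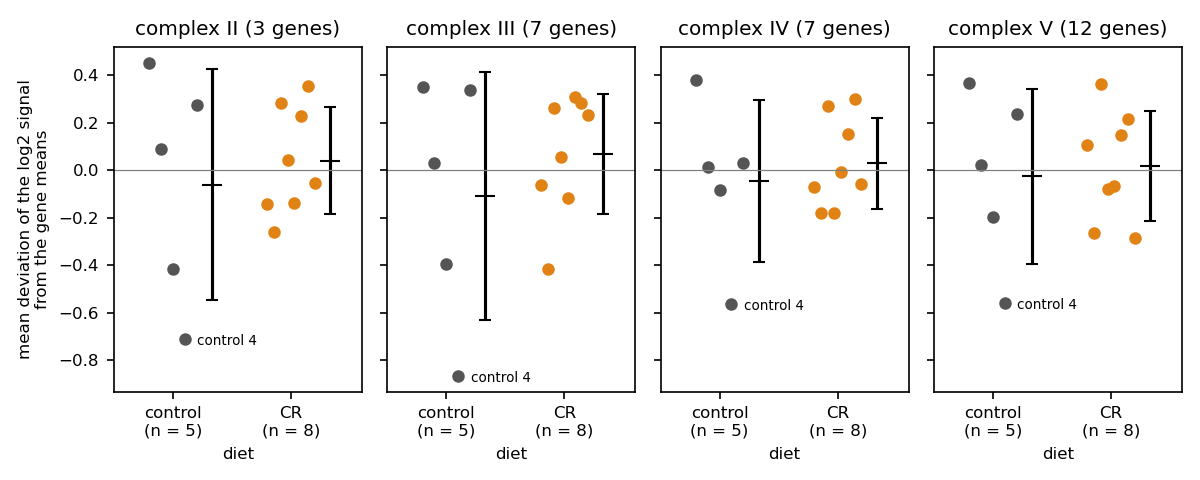
Mean deviation of each animal's log2 signal from the gene means (y axis) over the genes of complexes II, III, IV and V, in 5 controls (grey) and 8 CR animals (orange); the bar beside each group is its mean ± SD. The groups overlap in each panel, and the lowest point is control replicate 4, from -0.56 to -0.87.

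Among the subunits of complex II, SDHA, the flavoprotein that oxidises succinate, had a log2 signal of 14.74, 13.97, 13.47, 13.46 and 14.40 in control replicates 1 to 5, and a lowest value of 13.85, a median of 14.13 and a highest of 14.47 in CR. The CR values lay inside the control range. The difference was 0.15 ± 0.21 (SE; 95% interval -0.29 to 0.59), and 0.013 without control replicate 4. SDHB, the iron-sulphur subunit, was at 13.93, 13.65, 13.47, 12.73 and 13.87 in controls and at 13.17, 13.65 and 14.06 (lowest, median, highest) in CR. Its control and CR ranges overlapped too, with only control replicate 4 below the CR range, and the difference went from 0.16 ± 0.20 (SE) to -0.043 without that animal. For SDHC, a membrane anchor of the complex, the controls had 12.01, 11.95, 11.14, 11.004 and 11.87 and CR animals 11.23 to 12.00, and both group means were 11.59, with a difference of -0.0039 ± 0.20 (SE), or -0.15 without control replicate 4. SDHD, the other anchor, was not analysed here.

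Complex III had the highest median of the 4 complexes. UQCRQ, a small subunit, had the lowest p of all 29 genes. Its controls were at 15.30, 15.41, 15.19, 14.41 and 15.35 and its CR animals at 14.76, 15.37 and 15.96 (lowest, median, highest). The other controls lay close together in the middle of the CR range, while control replicate 4 lay below it. The difference was 0.29 ± 0.21 (SE; 95% interval -0.15 to 0.73), with 7 of 8 CR animals above the control mean, and it was 0.11 without control replicate 4. UQCR11, another small subunit, had the highest difference of the complex, 0.30 ± 0.25 (SE). Its control values were 14.89, 14.13, 14.24, 13.32 and 14.79, its CR values ran from 14.01 over a median of 14.56 to 15.04, and the difference was 0.063 without control replicate 4.

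The subunits of complex III that carry electrons and its core protein UQCRC1 had differences above 0 that were smaller, or below 0, without control replicate 4. CYC1, cytochrome c1, which reduces cytochrome c, was at 14.88, 14.46, 13.76, 13.42 and 14.63 in controls and at 14.06, 14.51 and 14.83 (lowest, median, highest) in CR. Control replicates 3 and 4 were below all CR animals and control replicate 1 was above them, and the difference was 0.28 ± 0.22 (SE), or 0.076 without control replicate 4. UQCRFS1, the Rieske iron-sulphur protein, was at 13.80, 13.97, 13.37, 12.80 and 13.96 in controls and at 13.10, 13.73 and 14.03 in CR. All but control replicate 4 lay in the CR range, and the difference of 0.12 ± 0.21 (SE) became -0.073 without it. UQCRC1, which with UQCRC2 forms the matrix-side core, was at 14.47, 14.13, 13.41, 13.004 and 14.34 in controls and at 13.57, 14.11 and 14.43 in CR. As for CYC1, control replicates 3 and 4 were below all CR animals, and the difference was 0.25 ± 0.23 (SE), or 0.034 without control replicate 4.

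The remaining subunits of complex III had small differences. UQCRC2, the partner core protein, was at 13.37, 12.95, 12.29, 11.83 and 13.37 in controls and from 12.45 to 13.21 in CR, with a difference of 0.0083 ± 0.24 (SE) that was -0.22 without control replicate 4. UQCRB, a subunit near the ubiquinone site, had the lowest difference of the complex, -0.021 ± 0.19 (SE), or -0.079 without control replicate 4. It was also the only gene of complex III that was not lowest in control replicate 4: its controls were 10.65, 10.09, 9.87, 10.07 and 10.82. UQCRH, UQCR10 and CYCS (cytochrome c itself, the carrier between complexes III and IV) were not analysed here, since no probe set carried their name alone.

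Complex IV holds isoforms that muscle uses in place of the general form. COX7A1, the isoform of heart and skeletal muscle, had the highest difference of all 29 genes. Controls had 16.46, 16.05, 15.73, 14.87 and 16.22, and the CR animals 15.76, 16.21 and 16.58 (lowest, median, highest). Control replicate 4 was the lowest of the 13 animals, and the other controls lay within or just below the CR range. The difference was 0.31 ± 0.24 (SE; 95% interval -0.19 to 0.81, 1.24-fold), and 0.057 without control replicate 4. COX6A2, the muscle isoform of subunit 6A, varied most in complex IV, with 16.27, 15.61, 14.71, 14.08 and 16.03 in controls and 15.02, 15.60 and 16.07 in CR. The 2 lowest values were control replicates 3 and 4 and the highest control replicate 1, and the difference of 0.21 ± 0.32 (SE) became -0.11 without control replicate 4. Its general counterpart COX6A1 was not analysed here.

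COX7A2, the general isoform of subunit 7A, ran the other way from COX7A1 in several animals. The controls had 11.28, 11.03, 11.59, 11.37 and 10.78, with control replicates 3 and 4 highest, and the CR values ran from 10.89 over a median of 11.06 to 11.46. The difference was -0.12 ± 0.15 (SE), or -0.080 without control replicate 4, and 1 of 8 CR animals was above the control mean. COX8A, a small subunit, had the lowest difference of complex IV, -0.24 ± 0.21 (SE). Its controls were at 11.03, 10.71, 10.72, 11.29 and 10.31, and its CR values at 10.08, 10.59 and 11.16 (lowest, median, highest). Control replicate 4 was the highest of the 13 animals for this gene, and the difference was -0.12 without it.

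The other measured subunits of complex IV had differences above 0 over all 13 animals. COX5A, a matrix-side structural subunit, was at 15.18, 15.03, 14.89, 14.02 and 14.96 in controls and at 14.45, 14.90 and 15.38 in CR. Control replicate 4 was again alone below the CR range, and the difference of 0.094 ± 0.20 (SE) became -0.11 without it. COX6B1, which faces the intermembrane space, had a difference of 0.18 ± 0.21 (SE) and COX7B 0.083 ± 0.18 (SE), or 0.011 and -0.049 without control replicate 4. COX4I1, whose probe set carries several symbols, and COX5B, COX6C and COX7C were not analysed here.

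In complex V the catalytic head was read through its beta subunit alone. ATP5F1B, the beta subunit that makes ATP, was at 14.92, 14.70, 14.15, 13.89 and 14.85 in controls and at 14.23, 14.49 and 14.85 (lowest, median, highest) in CR. Control replicates 3 and 4 were below the CR animals and control replicate 1 was the highest. The difference was -0.022 ± 0.19 (SE; 95% interval -0.42 to 0.38), or -0.17 without control replicate 4. The alpha subunit ATP5F1A was not analysed here. Of the central stalk, which turns inside the head, ATP5F1C (gamma) had a difference of 0.18 ± 0.21 (SE), ATP5F1D (delta) 0.12 ± 0.17 and ATP5F1E (epsilon) 0.19 ± 0.16, which without control replicate 4 were 0.044, -0.043 and 0.082. ATP5F1E had the lowest p of complex V (difference 95% interval -0.15 to 0.53), from control values of 15.05, 14.54, 14.92, 14.27 and 14.70 and CR values of 14.56, 14.90 and 15.27. Of these 5 controls, replicates 2 and 4 were below the CR range.

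The peripheral stalk, which holds the head still, contained the highest and the lowest difference of complex V. ATP5PO, the subunit that ties the stalk to the head, was at 14.80, 14.40, 14.09, 13.40 and 14.64 in controls and at 14.09, 14.45 and 14.78 in CR, a difference of 0.19 ± 0.21 (SE), or -0.025 without control replicate 4. ATP5PB, the long subunit b, was at 7.10, 7.60, 6.84, 7.82 and 7.31 in controls and at 3.85, 6.88 and 8.29 in CR. The CR values ran past the controls at both ends. The difference was -0.58 ± 0.55 (SE; 95% interval -1.75 to 0.58), the widest interval of the 29, and -0.17 without CR replicate 8, which held the value of 3.85, and -0.46 without control replicate 4. ATP5PD and ATP5PF, the other subunits of the stalk, had differences of 0.13 ± 0.18 and 0.052 ± 0.17 (SE), and ATP5MG, a membrane subunit, 0.15 ± 0.18. Without control replicate 4 these were -0.017, -0.029 and -0.0040. ATP5ME and ATP5MF, also in the membrane, were not analysed here.

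Subunit c, which forms the rotor ring, is made from the genes ATP5MC1, ATP5MC2 and ATP5MC3, whose mature products are identical. ATP5MC1 was at 14.37, 14.01, 13.66, 12.94 and 14.43 in controls and at 13.21, 13.97 and 14.66 in CR, and ATP5MC3 at 14.91, 14.41, 13.78, 13.48 and 14.58 in controls and at 13.65, 14.37 and 14.89 in CR. Both were lowest in control replicate 4, with CR replicate 2 the lowest of the CR animals. The differences were 0.094 ± 0.26 (SE) for ATP5MC1 and 0.16 ± 0.25 for ATP5MC3, or -0.14 and -0.027 without control replicate 4. ATP5MC2 had controls at 10.15, 9.81, 9.97, 9.31 and 10.02 and CR values of 9.55, 9.63 and 10.01. Its difference was -0.15 ± 0.16 (SE), with 2 of 8 CR animals above the control mean, and -0.29 without control replicate 4. The brightest ATP5MC1 probe set is annotated under the older symbol ATP5G1 with another gene identifier than the current one. The brightest probe set under the current identifier gave a difference of 0.12 ± 0.16 (SE).

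**Figure D3:**
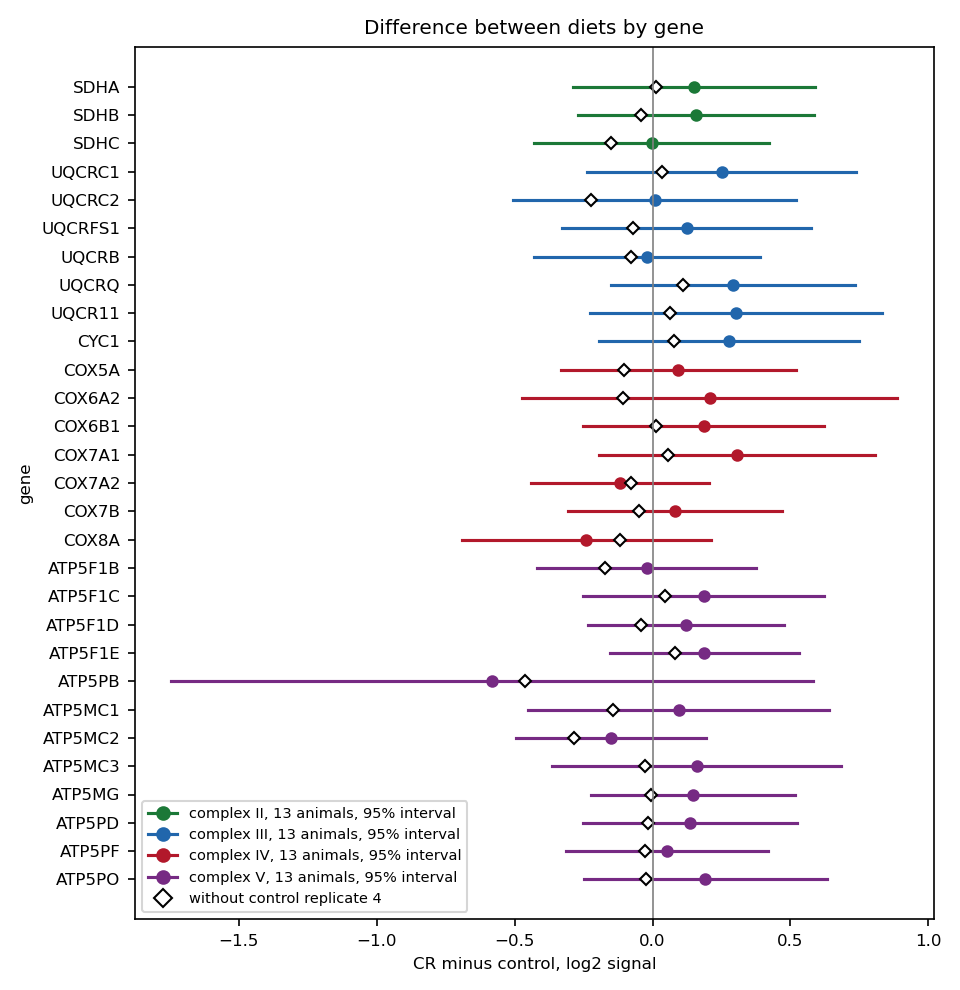
Difference in log2 signal, CR minus control (x axis), for each of the 29 genes (y axis), coloured by complex; filled points with bars are the limma estimates over 13 animals with 95% intervals, and open diamonds the estimates without control replicate 4. Each of the 29 intervals covers 0, and 20 of the 29 diamonds lie below 0.

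Ratios of isoforms within an animal remove the scaling of its array, and 4 such ratios were compared. The log2 ratio of COX7A1 to COX7A2 deviated from its mean over all animals by 0.26, 0.10, -0.78, -1.42 and 0.52 in control replicates 1 to 5. Controls were thus split, with replicates 3 and 4 low and the others high, and the CR animals ran from -0.61 to 0.61. The group means differed by 0.43 (control SD 0.81, n = 5; CR SD 0.41, n = 8), with 7 of 8 CR animals above the control mean (two-sided exact permutation p = 0.239, adjusted over the 4 ratios 0.450). It was 0.14 once control replicate 4 was left out. For ATP5MC2 against ATP5MC3 the difference was -0.31 (exact permutation p = 0.186, adjusted 0.450), with 2 of 8 CR animals above the control mean. The differences of ATP5MC1 against ATP5MC2 and of ATP5MC1 against ATP5MC3 were 0.25 (exact permutation p = 0.337, adjusted 0.450) and -0.065 (exact permutation p = 0.612, adjusted 0.612). These 3 differences were -0.26, 0.14 and -0.11 when control replicate 4 was left out. No ratio differed between the diets by the test.

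**Figure D4:**
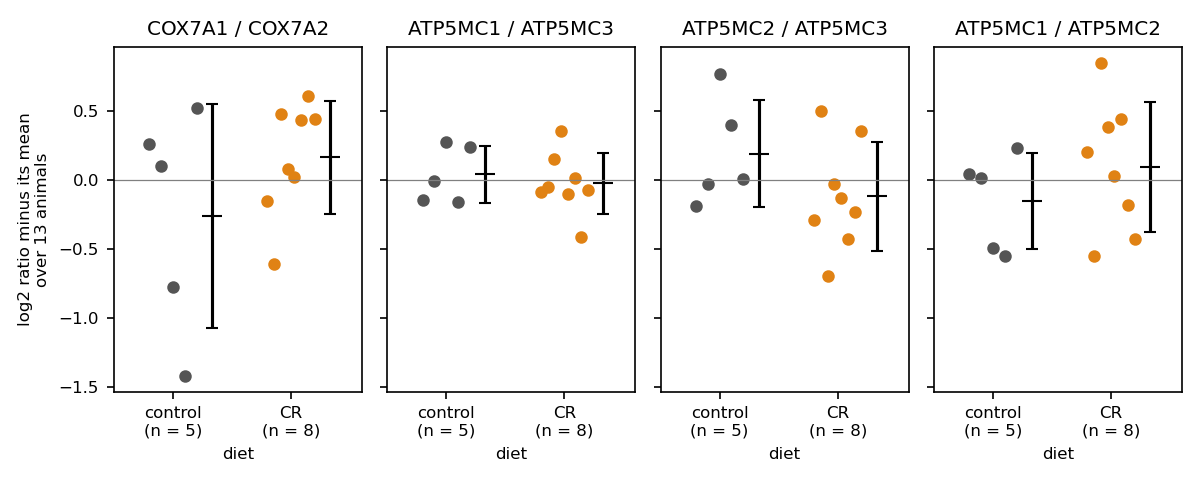
Log2 ratio of the signals of paired isoforms minus its mean over 13 animals (y axis) for COX7A1 to COX7A2, ATP5MC1 to ATP5MC3, ATP5MC2 to ATP5MC3 and ATP5MC1 to ATP5MC2, in 5 controls (grey) and 8 CR animals (orange); bars are mean ± SD. The groups overlap in all 4 panels, and the lowest COX7A1 to COX7A2 value, -1.42, is control replicate 4.

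One subunit of each complex was then followed over the 13 animals, which gave 6 pairs that share the scaling of each array. SDHB and UQCRC1 had r = 0.93 (rho = 0.91; permutation p = 1e-05 and 4e-05, adjusted over the 6 pairs 3e-05 and 0.00024), and 1e-05 is the smallest p that the resampling can give. Without the 2 animals farthest from the median of SDHB, control replicate 4 and CR replicate 2, r was 0.82, and within the 8 CR animals it was 0.95 (exact permutation p = 0.0022, adjusted 0.0065). SDHB and COX5A had r = 0.94 (rho = 0.86; permutation p = 1e-05 and 0.00031, adjusted 3e-05 and 0.00093), or 0.79 without the same 2 animals and 0.92 within CR (exact permutation p = 0.0021, adjusted 0.0065). UQCRC1 and COX5A had r = 0.84 (rho = 0.81; permutation p = 0.00068 and 0.0012, adjusted 0.0010 and 0.0014), 0.85 without control replicates 3 and 4 and 0.87 within CR (exact permutation p = 0.0057, adjusted 0.011). Without control replicate 4 alone, r was 0.87 for SDHB and UQCRC1, 0.88 for SDHB and COX5A, and 0.68 for UQCRC1 and COX5A. These subunits of complexes II, III and IV thus moved together from animal to animal also within the CR group.

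ATP5F1B of complex V followed the others over all 13 animals but less closely within CR. Its r was 0.75 with SDHB (rho = 0.67; permutation p = 0.0024 and 0.015, adjusted 0.0024 and 0.015), 0.80 with UQCRC1 (rho = 0.81; permutation p = 0.00037 and 0.0010, adjusted 0.00074 and 0.0014) and 0.77 with COX5A (rho = 0.82; permutation p = 0.0014 and 0.00072, adjusted 0.0017 and 0.0014). Without the 2 animals farthest from the median of the first gene, r was 0.67, 0.59 and 0.67. Without control replicate 4 alone it was 0.59, 0.69 and 0.62. Within the CR animals r was 0.47 (exact permutation p = 0.239), 0.47 (exact permutation p = 0.250) and 0.67 (exact permutation p = 0.071), with adjusted p of 0.250, 0.250 and 0.106. Whether r differed between these pairs and those among complexes II to IV was not tested.

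The sign of the difference went with the brightness of the probe set. The 24 genes with a mean log2 signal of 11.59 or more had 22 differences above 0, a median of 0.15, and their lowest value in control replicate 4 for 23 genes. The 5 dimmer genes, all at 11.14 or less, were UQCRB, COX7A2, COX8A, ATP5MC2 and ATP5PB. They had 0 above 0, a median of -0.15, and their lowest value in control replicate 4 for 1. The split was chosen after the values were seen and nothing was tested with it. The dim complex I subunits NDUFV3 (mean 7.47) and NDUFB10 (mean 9.40) had differences of 0.16 and 0.045, or 0.14 and -0.18 without control replicate 4. With control replicate 4 left out, the bright genes had 9 of 24 above 0 and a median of -0.026, and the dim ones 0 of 5 and a median of -0.12. Most genes of both sets were then below 0.

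Other probe sets of the same genes were read as well. There were 20 of them for 13 genes, 15 of which passed the filter on dim probe sets, and these 15 gave 8 differences above 0 and 7 below, from -0.47 to 0.41. The 3 brightest, of UQCRC1 (0.16), ATP5F1D (0.31) and ATP5PO (0.26), were above 0 like the brightest probe set of their gene. Of the 12 dimmer ones 5 were above 0. A probe set that differed in sign from the brightest one of its gene was found for UQCRC1, UQCRB, UQCR11, COX5A, COX7A2, ATP5F1B, ATP5F1C, ATP5F1E, ATP5MC1, ATP5MG and ATP5PO. For COX5A, ATP5MG and ATP5PO such probe sets were all too dim to pass the filter, and the other ATP5PO probe set that passed had the same sign. Of the 12 probe sets of opposite sign in all, 8 passed.

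**Figure D5:**
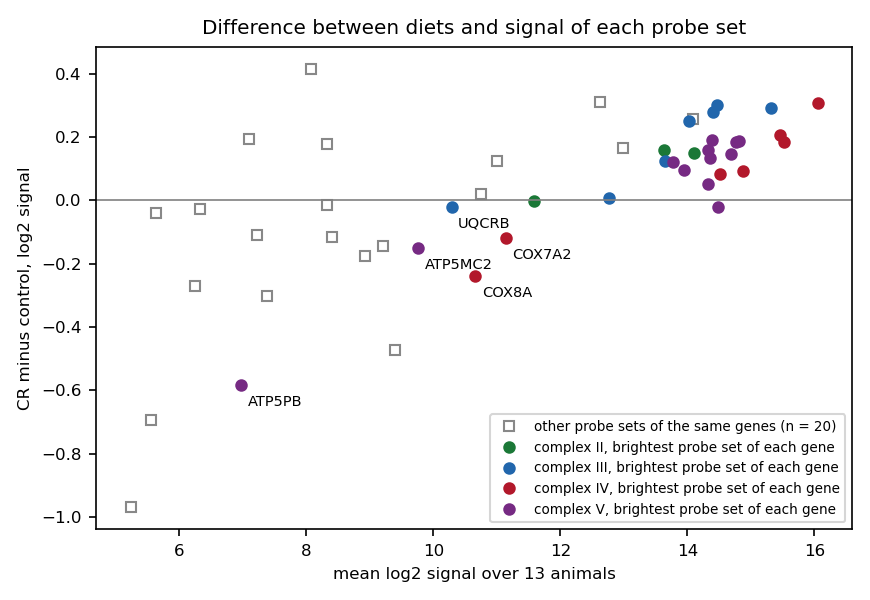
Difference in log2 signal between the diets, CR minus control (y axis), against the mean log2 signal over 13 animals (x axis), for the brightest probe set of each of the 29 genes (filled, coloured by complex) and the 20 other probe sets of these genes (open squares). The 5 labelled genes, at a mean of 11.14 or less, are all below 0, and 22 of the 24 brighter genes are above it.

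Fibre type markers, a measure of which fibres a sample held, were read beside the respiratory genes. All 9 slow-twitch markers had differences below 0, with a median of -0.52, and 8 of 9 fast-twitch markers were above 0, with a median of 0.24. Without control replicate 4 the medians were -0.99 (0 of 9 above 0) and 0.053 (7 of 9). None passed the adjusted threshold. CR replicate 1 had a mean deviation over the 9 fast-twitch markers of -1.24. The other CR animals had -0.21 to 0.62 and the controls -0.61 to 0.22. The differences of the fast-twitch markers without CR replicate 1 were not worked out. CR replicate 8 had a summed slow-twitch signal of 24829, where the other CR animals had at least 95666. Its mean deviation over the 9 slow-twitch markers was -3.33, against -1.52 to 1.58 in the other CR animals and -0.96 to 1.23 in controls. This animal lowered the CR mean of the slow-twitch markers, and their differences without it were not worked out. In that animal the mean deviation was -0.05 for complex II, 0.23 for complex III, -0.06 for complex IV and -0.29 for complex V, the last -0.028 when ATP5PB was left out. UQCRQ (15.96) and UQCRFS1 (14.03) had their highest value of all 13 animals in CR replicate 8. CR replicate 8 was the lowest of the 13 animals for 1 of the 29 genes, ATP5PB. Whether the respiratory genes went with the slow-twitch markers was not tested.

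Genes that build or serve these complexes gave no call either. All 24 measured subunits of complex I, which feeds electrons from NADH into the same chain, had differences above 0, with a median of 0.18 and the largest for NDUFA6 (0.33 ± 0.24, SE). By lowest p, its leading genes were NDUFC1 (0.31 ± 0.21, SE) and NDUFA10 (0.26 ± 0.18, SE). Of the 24, 13 were above 0 when control replicate 4 was left out, with a median of 0.014, and the differences of NDUFA6, NDUFC1 and NDUFA10 were 0.15, 0.18 and 0.11. Among assembly factors of complexes II and III, 5 of 9 were above 0 (median 0.063), or 6 of 9 (median 0.055) without control replicate 4. SDHAF1, which helps insert iron-sulphur clusters into SDHB, was at 7.80, 8.38, 8.52, 8.40 and 8.01 in controls and higher by 0.45 ± 0.19 (SE) in CR (95% interval 0.049 to 0.86, before adjustment; adjusted p = 0.999), and by 0.50 without control replicate 4. LYRM7, which serves the Rieske protein, had a difference of 0.35 ± 0.23 (SE), or 0.39 without that animal. Assembly factors of complex IV had 7 of 16 above 0 (median -0.021), or 5 of 16 (median -0.073) without control replicate 4. Of these, COX20, a chaperone of the core subunit COX2, was at 11.40, 11.69, 11.87, 11.42 and 11.25 in controls. It was higher by 0.40 ± 0.18 (SE) in CR (95% interval 0.018 to 0.78, before adjustment), or by 0.37 without control replicate 4. COX10, which takes part in making haem a, had a difference of -0.27 ± 0.17 (SE), or -0.20 without control replicate 4. SDHAF1 and COX20 were named for having the lowest p of their lists, and did not pass the adjusted threshold. Each was the only gene of its list, of 9 and 16 tested, with an unadjusted limma p under 0.05. Over all probe sets, 1.25% passed that limit as higher in CR. No tested gene of the other pathway lists passed it.

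The 3 measured assembly factors of complex V were all above 0 (median 0.16), among them TMEM70 (0.30 ± 0.24, SE) and FMC1 (0.16 ± 0.25, SE). In coenzyme Q synthesis, which makes the ubiquinone that complex II reduces, 7 of the 8 genes that passed the filter were above 0 (median 0.064), led by COQ9 (0.28 ± 0.26, SE) and COQ4 (0.15 ± 0.16, SE). Among the genes of ATP and phosphate export, which are not all carriers, 5 of 6 were above 0 (median 0.15). CKMT2, the mitochondrial creatine kinase of muscle, was at 0.35 ± 0.35 (SE) and SLC25A4, the muscle ADP/ATP carrier, at 0.28 ± 0.29 (SE). Further subunits of complexes IV and V had 3 of 4 above 0 (median 0.067): NDUFA4, a complex IV subunit despite its name, had 0.18 ± 0.17 (SE), COX4I2, the isoform of COX4I1, -0.22 ± 0.23 (SE), and ATP5IF1, which inhibits the ATP synthase in reverse, 0.047 ± 0.24 (SE). Without control replicate 4 the medians of these 4 lists were 0.027 (2 of 3 above 0), -0.057 (3 of 8), -0.048 (2 of 6) and -0.026 (2 of 4). Of the genes named here, TMEM70 was then at 0.21, COQ4 at 0.061, NDUFA4 at 0.047, FMC1 at 0.027, COQ9 at 0.025, CKMT2 at 0.020, ATP5IF1 at 0.016, SLC25A4 at -0.051 and COX4I2 at -0.10.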

How the data were processed

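Per the labels' protocols, total RNA was isolated with Trizol and turned into biotinylated cRNA for Affymetrix arrays read in 1 colour. The deposited intensity values, 1 signal per probe set and animal, were summarised by the authors with MAS5, per the submitters' processing notes, with a version not given in the sources used here. Their 2% trimmed mean was 500.04 to 500.05 on every array, so 1 factor scaled each array, and a shift of most transcripts would not be seen.

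After removal of 99 control probe sets from 52865, signals were floored at 1 (137 values) and log2 transformed. The brighter 50% by mean over 13 arrays, 26383 probe sets with a mean signal of at least 107, were fitted on diet with limma 3.58.1 in R 4.3.3 (lmFit, then eBayes with a trend) and adjusted by Benjamini-Hochberg over all of them; limma p-values are two-sided. Genes were named through the platform annotation, and 24956 probe sets carried 1 symbol. All 29 member genes passed the filter. The number of arrays limits the precision. MAS5 detection calls were not used here.

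Members and lists were chosen with earlier results of these data known. Named genes were the main catalytic and electron-carrying subunits, isoforms, each complex's extremes by difference and p, members whose probe sets disagree, and up to 2 genes by p in each pathway list. Isoform ratios were tested over all 1287 splits of the animals and correlations with 100000 permutations. COX5B had no probe set of its own, so COX5A took its place in the correlations, and the planned COX6A2 to COX6A1 ratio was not analysed here. The 3-prime over 5-prime log2 ratios were 0.58 ± 0.23 (SD, n = 5) for controls and 0.71 ± 0.13 (SD, n = 8) for CR with GAPDH (exact permutation p = 0.214), and 1.75 ± 0.38 and 1.74 ± 0.31 with actin (exact permutation p = 0.986). The labels give no batch or scan date. Scripts were tested on simulated data; figures were drawn with matplotlib 3.10.9. No genome or sequence table of this species was used here, and no sequence is printed.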

Additional observations from a re-analysis of the deposited data

Results flagged for a closer look

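Within each group of animals, single values were compared with the gap to their neighbours (Dixon's criterion). Of 76 groups of values examined, 4 held a value that stood apart, and chance gives about 1 in 20, or 3.8. UQCRQ was at 14.41 in control replicate 4, where the other controls had 15.19 to 15.41. COX5A was at 14.02 in control replicate 4, against 14.89 to 15.18. COX7B was at 15.22 in CR replicate 3, against 14.28 to 14.69 in the other CR animals. ATP5PB was at 3.85 in CR replicate 8, against 6.52 to 8.29; its probe set was the dimmest of the 29, with a mean signal of 126.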

How the results depend on the processing

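No member gene passed the adjusted threshold in the fit as reported or under any alternative. The number of probe sets called was 0 in the fit as reported and ranged from 0 to 1 when single animals were left out (1 without control replicate 1 and 1 without control replicate 5), with 0 under the other alternatives. The medians of complexes II, III, IV and V moved by less than the spread between animals, but 2 of them changed sign apart from the loss of single animals: complex II to -0.0081 with the RNA quality ratios as covariates and complex IV to -0.013 when only probe sets without the _s_at or _x_at suffix were used, an alternative chosen after seeing the data. The other alternatives were chosen with earlier results known, as was the use of the current ATP5MC1 identifier, which was added after seeing these data. Replicate numbers did not pair the animals (correlations of same-numbered animals from -0.20 to 0.020). With the replicate number as a block the ATP5MC1 to ATP5MC3 ratio was 0.013 and the UQCRC2 difference -0.13, both of the opposite sign, 0 probe sets were called, and the median over all members was 0.064.

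Genes whose sign turned were as follows; the cause was not tested. With the RNA quality covariates SDHA was at -0.0081, UQCRC2 at -0.18, COX6A2 at -0.024, ATP5MC3 at -0.0063 and ATP5PF at -0.024. With quantile normalization SDHC was at 0.0047, UQCRC2 at -0.0030, UQCRB at 0.0031 and ATP5PF at -0.024, and with median centring SDHC at 0.036, UQCRB at 0.019 and ATP5F1B at 0.018. With array weights, the lowest of which was 0.485 for control replicate 4, UQCRC2 was at -0.13, COX5A at -0.0052 and ATP5MC1 at -0.014. With the probe sets of each gene averaged COX5A was at -0.21, COX7A2 at 0.030, ATP5F1E at -0.14 and ATP5MG at -0.41. Leaving out single animals gave -0.043 to 0.26 for SDHB, -0.15 to 0.099 for SDHC, -0.22 to 0.16 for UQCRC2, -0.073 to 0.22 for UQCRFS1, -0.13 to 0.11 for UQCRB, -0.11 to 0.19 for COX5A, -0.11 to 0.44 for COX6A2 and -0.049 to 0.17 for COX7B. In complex V it gave -0.17 to 0.083 for ATP5F1B, -0.043 to 0.22 for ATP5F1D, -0.14 to 0.23 for ATP5MC1, -0.027 to 0.33 for ATP5MC3, -0.0040 to 0.25 for ATP5MG, -0.017 to 0.27 for ATP5PD, -0.029 to 0.14 for ATP5PF and -0.025 to 0.32 for ATP5PO. The isoform ratios were not run under the filter, variance model, weight and covariate alternatives, and ATP5PB is not among the brightest 25% of probe sets.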

Other observations

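The spread between animals was larger among controls than among CR animals for most genes of complexes II to V. The control SD was above the CR SD for 26 of 29 genes (89.7%), against 58.0% of all 9811 genes tested. The median SD over the 29 genes was 0.46 in controls and 0.29 in CR, on the log2 scale. It was not particular to these genes. The SD of an animal's mean deviation was 0.40 in controls and 0.20 in CR over the 29 genes. Over the 24 complex I subunits it was 0.44 and 0.22, while over the 9 slow-twitch markers it was 0.93 and 1.63. Without control replicate 4, the control SD was above the CR SD for 18 of 29 genes (62.1%), against 45.4% of all genes tested, and the median control SD was 0.31. No test was made of these shares, since the genes share animals and array scaling. Above the mean, control replicate 1 was highest of the 13 animals for 11 genes and CR replicate 3 for 10, and CR replicate 2 was below the mean of the 13 animals for 25 of 29 genes.

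Marker lists of other cell types gave no call. Medians of the differences were -0.33 for 9 endothelial genes, -0.42 for 5 smooth muscle and pericyte genes, -0.66 for 5 adipocyte genes, -0.080 for 8 fibroblast and matrix genes, -0.18 for 6 macrophage genes and -0.030 for 4 Schwann cell genes. For the skeletal muscle fibre list the median was 0.28 over 9 genes, of which TNNT3, TNNI2, TNNC2 and MYOZ1 were also among the fast-twitch markers. TTN (titin) had the lowest p of the muscle fibre list, with a difference of -0.70 ± 0.32 (SE; 95% interval -1.39 to -0.017, before adjustment; adjusted p = 0.999). Leaving out control replicate 4, these medians were -0.19, -0.076, -0.17, 0.15, -0.029 and 0.076, and 0.17 for the muscle fibre list. The 2 blood genes and 1 lymphocyte gene tested had differences from -0.26 to -0.16. Without control replicate 4 the blood genes HBB and ALAS2 were at -0.15 and 0.11, and the lymphocyte gene PTPRC at 0.065.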
